A study of Homo sapiens with 47 samples.

Results

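Solute carriers were followed in a table of 47 single HEK293 cells as every row whose symbol starts with SLC and a number, other than the mitochondrial SLC25 family, with at least 20 unique molecular identifiers (UMIs) summed over the cells. The table held 211 rows with such a symbol, and 104 of them reached the minimum. These 104 genes were 1.14% of the 9088 genes of the table that reached it, and together they had 9554 UMIs. By family 98 of them are carriers, and the other 6 only carry the name of a carrier they bind, regulate or lie beside. HEK293 is a human line made from embryonic kidney cells with adenovirus DNA. All cells were of this line and of 1 run, grown in DMEM with glutamine and fetal calf serum, with no treatment, drug or engineered allele in the labels. No groups were compared. The labels name no separate cultures, so the 47 cells were treated as 1 sample, every value below is a description of these cells, and no p-value is given. Cells are called by the numbers in their labels.

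Solute carriers move amino acids, sugars, nucleosides, vitamins, metals and inorganic ions across the plasma membrane and the membranes of organelles, by facilitated diffusion, exchange or coupling to sodium or protons. Some of them reach the membrane only with a partner: the light subunits of the SLC7 family pair with the heavy chain SLC3A2, also called CD98, and monocarboxylate carriers pair with basigin, the product of BSG. Kidney tubules are known for their many carriers of urate, glucose, phosphate and organic ions, and HEK293 cells, although of kidney origin, are widely noted to express neurofilament genes.

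A cell had 29325 to 138647 UMIs of endogenous genes, with a median of 59689, and 17.7% of the spike-in molecules were recovered as UMIs (17.7% to 17.8% by the exact Poisson interval). Dividing UMIs by that recovery gives the estimated molecules per cell below, on the assumption that endogenous mRNA is counted as efficiently as the spike-ins. Each UMI stands for the 5' end of 1 molecule, so counts were not divided by gene length. Intervals are at 95% and cover counting error only. All 6 HEK293 identity genes had a row and at least 20 UMIs, among them UCHL1 with 817 and NEFM with 462. Of the genes of differentiated kidney with a row, PODXL had 29 UMIs, LRP2 had 26 and NPHS1 had 1. The fibroblast genes COL1A1 and COL1A2 had 12 and 1, and the blood gene HBA1 had 4. Cell 52 stood apart, with 18.7% of its UMIs from mitochondrially encoded rows against a median of 5.46% over all cells.

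Few solute carriers were abundant. The 104 genes took 0.327% of the endogenous UMIs (exact binomial interval 0.321% to 0.334%). The 5 with most UMIs held 22.5% of these, the first 10 held 36.6% and the first 20 held 53.3%. At the other end 46 genes (44.2%) had 20 to 49 UMIs, against 34.6% of all 9088 genes, and 49 were seen in fewer than 24 cells. The median solute carrier had 57 UMIs, 6.84 estimated molecules per cell and a UMI in 24 cells, while the median of all 9088 genes was 75 UMIs, 9.0 molecules and 30 cells. Mitochondrial SLC25 carriers had a median of 95 UMIs over 31 genes. The ABC family, taken by symbols from ABCA to ABCG whether or not a gene encodes a transporter, had 64.5 over 14. In 48.7% of all rows of the table the sum reached 20 UMIs, so the 104 of 211 lie near the background. The genes were chosen by this sum of UMIs, and the pattern of 1 leading cell was also part of the choice. Just inside it were SLC9A8 and SLC9B2 with 20 UMIs and SLC4A11 with 21, which are exchangers or carriers of protons and sodium. Just outside were the glutamate carrier SLC1A1 and SLC35E2B with 19 and the potassium-chloride cotransporter SLC12A7 with 18. In all 98 rows had 1 to 19 UMIs, 623 together, and 16 of these had a single UMI. The 9 rows at 0 were SLC2A9, SLC5A5, SLC6A20, SLC12A8, SLC14A2, SLC22A4, SLC22A18AS, SLC35D3 and SLC52A1. For each of them 3 counts, or 0.000103% of endogenous UMIs, is the limit that the depth allows.

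**Figure D1:**
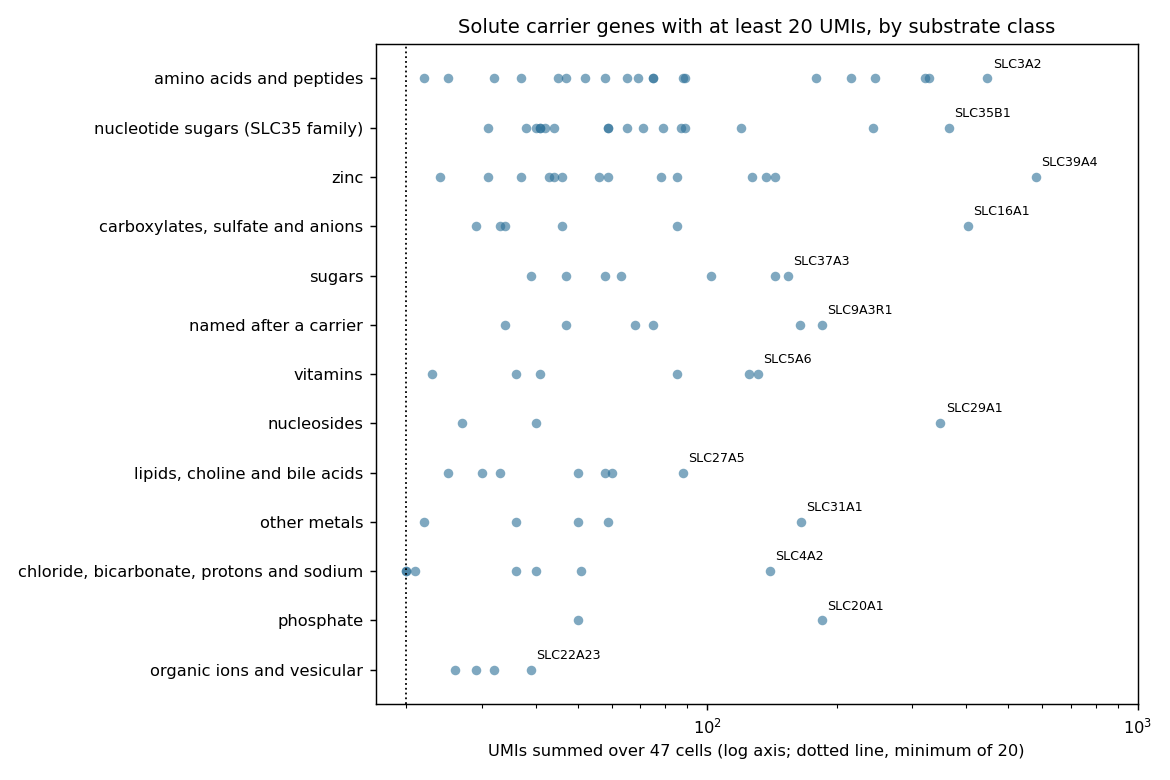
UMIs summed over 47 cells (x axis, log scale) of the 104 solute carrier genes, 1 point a gene, in rows by substrate class from the class with most UMIs at the top; the first gene of each class is named and the dotted line is the minimum of 20. SLC39A4 is farthest right with 580 UMIs, and most points lie under 100.

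Amino acid and peptide carriers were the largest class, with 20 genes and 2517 UMIs, or 26.3% of all solute carrier UMIs. SLC3A2, the CD98 heavy chain, led with 448 UMIs (53.7 estimated molecules per cell). Its counts per cell were 1 at the lowest, 9 at the median and 32 at the highest (9.53 ± 7.40, SD, n = 47 cells). It had a UMI in every cell. SLC1A5, the ASCT2 exchanger of glutamine and other neutral amino acids, had 328 UMIs in 46 cells, 0 to 15 per cell with a median of 7. SLC38A2 and SLC38A1, sodium-coupled carriers of neutral amino acids such as glutamine, had 321 UMIs in 46 cells and 246 in 42. SLC7A1, the main carrier of cationic amino acids in growing cells, had 216 UMIs in 43 cells, 0 to 20 per cell with a median of 4. SLC6A15, a neutral amino acid carrier best known from brain, followed with 179 UMIs in 42 cells. In this class 6 genes had under 50 UMIs, such as SLC38A10 with 25.

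The light chains of CD98 were much rarer than its heavy chain. SLC7A5, which exchanges large neutral amino acids, had 75 UMIs in 32 cells, and SLC7A6, which exchanges cationic and neutral ones, had 75 in 31 cells. SLC7A11, the cystine and glutamate exchanger, had 22 in 10 cells, with 5 in cell 38. The 3 light chains had 172 UMIs together, 0 to 9 per cell with a median of 3, so that there were 2.60 heavy chain UMIs per light chain UMI (exact interval 2.18 to 3.12). The heavy chain had more UMIs than the 3 light chains in 39 cells, as many in 5 and fewer in 3. SLC7A2, a cationic amino acid carrier that needs no heavy chain, had 69 UMIs in 25 cells. SLC7A8 is a further light chain and had 10 UMIs, while SLC7A7 and SLC7A10 were not analysed here. A pseudogene copy of SLC7A5, SLC7A5P1, had a row with 10 UMIs, so reads of one may have been counted for the other.

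Heavy and light chains showed weak rank correlations over cells. On log2(1 + UMIs scaled to the median total), Spearman's rho of SLC3A2 was 0.131 with SLC7A5, 0.119 with SLC7A6 and 0.170 with SLC7A11 (n = 47 cells). After each cell was thinned once, at random, to 29325 UMIs the values were 0.270, -0.0183 and 0.298. The points share their library preparation and depth, and counts this sparse make a weak rho no finding. SLC16A1 and BSG had a rho of -0.0667 (-0.169 after thinning). Among the 25 solute carriers with at least 100 UMIs, the median rho of 300 pairs was 0.0370, and over all genes with at least 100 UMIs it was 0.0144. Pairs looked at after the values were seen gave 0.160 for SLC1A5 and SLC3A2, 0.142 for SLC38A1 and SLC38A2, and -0.154 for SLC39A4 and SLC39A10. After thinning these were 0.278, 0.216 and -0.285.

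Many amino acid carriers are known targets of ATF4, a transcription factor of the amino acid response. Of 10 such genes 8 reached the minimum, which 48.7% of all rows did (SLC3A2, SLC1A5, SLC38A2, SLC7A1, SLC7A5, SLC1A4, SLC43A1 and SLC7A11), while the cationic amino acid carrier SLC7A3 had 2 UMIs and the glycine carrier SLC6A9 had 4. The 8 had 1492 UMIs together. Their summed share was 0.0921% in cell 53 (66 UMIs, interval 0.0712% to 0.117%) at the highest, 0.0499% at the median and 0.0159% in cell 31 (5 UMIs, interval 0.00517% to 0.0372%) at the lowest. These extremes do not overlap in their counting intervals, but they were picked as the extremes of 47 cells. Against the summed share of 8 ATF4 response genes that are not carriers, such as PSAT1 and PHGDH of serine synthesis, rho was -0.0693 (-0.133 after thinning); that second list was put together after the values of the table had been seen.

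Promoter windows from 250 bases before to 50 after each annotated start (RefSeq, GRCh38.p14) were matched by symbol for 85 of the 104 genes. They were searched on both strands for TGATGNAA, the letters of the C/EBP-ATF response element to which ATF4 binds. Among the 85 solute carriers 9 held it in some window (10.6%), against 2.49% of 7177 matched genes with at least 20 UMIs. The share was 3.70% of 81 matched solute carrier rows under 20 UMIs and 4.46% of all 27305 genes of the promoter table. Counted by window and not by gene, it was 3.62% of 35116. Of the 10 genes on the ATF4 list, which were picked for that link, 8 were matched, and 4 of these held it. These 8 are not the 8 that reached the minimum: SLC7A11 was not matched, and a gene under 20 UMIs was. The matched genes of the list had a median of 1.5 windows per gene against 1 in the other sets. The search was chosen with the counts known, and a match of letters is not evidence of binding. The sequences around those 4 matches are shown because these genes are on the ATF4 list, on the strand of the gene with the match in capitals (TGATGNAA or its reverse complement).
SLC3A2 (chr11:62881719-62881748, + strand): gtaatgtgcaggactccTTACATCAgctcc
SLC1A5 (chr19:46784893-46784922, - strand): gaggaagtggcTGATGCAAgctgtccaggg
SLC7A1 (chr13:29595663-29595692, - strand): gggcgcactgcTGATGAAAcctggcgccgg
SLC1A4 (chr2:64989381-64989410, + strand): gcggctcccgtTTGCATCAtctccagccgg
Counted from the annotated start, the match lies at 38 in SLC3A2, at -97 in SLC1A5, at 8 in SLC7A1 and at -7 in SLC1A4, where negative numbers are before the start. The 5 other genes with a match were SLC38A1, SLC27A5, SLC1A3, SLC11A2 and SLC39A11. A TATA box, searched as TATAAA on the strand of the gene in the stretch from 45 to 16 bases before the start, was found in SLC37A4 and SLC2A1, 2.35% of the 85 against 2.06% of all matched genes with at least 20 UMIs.

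Zinc carriers were led by a single gene. SLC39A4, the ZIP4 importer that takes up zinc in the gut, had the most UMIs of all solute carriers, 580 or 69.6 estimated molecules per cell, and ranked 746 among all genes. Its counts per cell were 1 in cell 52 at the lowest, 11 at the median and 33 in cell 62 at the highest (12.3 ± 8.44, SD, n = 47 cells). It and SLC3A2 were the solute carriers with a UMI in every cell. Cell 53, which had 31 UMIs of SLC3A2, had 2 of SLC39A4, an example chosen after its values were seen. The ZIP family, which brings zinc into the cytosol, had 10 genes and 1266 UMIs, and the ZnT family, which moves it out or into organelles, had 4 genes and 225. That is 5.63 ZIP UMIs per ZnT UMI (exact interval 4.88 to 6.51), and 3.05 without SLC39A4, which held 45.8% of the ZIP UMIs. SLC39A10 had 144 UMIs in 38 cells, SLC39A1 137 in 38 and SLC39A6 127 in 38, all importers of the plasma membrane. SLC30A9 led the ZnT family with 85 UMIs, and the exporter SLC30A1, which responds to zinc in many cells, had 15 and missed the minimum. For every 100 zinc carrier UMIs there were 169 of amino acid carriers, or 276 when SLC39A4 was left out.

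The SLC35 family, named for the carriage of nucleotide sugars into the Golgi and endoplasmic reticulum, had 17 genes of 25 rows and 1514 UMIs, 15.8% of the total. SLC35B1, which exchanges ATP and ADP across the membrane of the endoplasmic reticulum, had 365 UMIs in 46 cells, 0 to 18 per cell with a median of 8. SLC35A4 had 243 in 42 cells, 0 to 16 per cell with a median of 4. SLC35B4, a carrier of UDP-sugars, had 120, SLC35B2, which carries the sulfate donor PAPS, had 89 and the UDP-galactose carrier SLC35A2 had 79. Several genes of the family, such as SLC35F2 with 71 UMIs and SLC35G1 with 59, have no settled nucleotide sugar substrate.

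Among carriers of organic acids and anions SLC16A1, the MCT1 carrier of lactate and pyruvate, stood far ahead with 404 UMIs in 45 cells. It had 0 UMIs in cells 10 and 15, 6 at the median and 29 in cell 62. Its partner BSG had 1004 UMIs. SLC16A10, a carrier of aromatic amino acids, had 33, and SLC16A3, the other main lactate carrier, was not analysed here. Nucleoside carriers were led by SLC29A1, the equilibrative carrier ENT1, with 348 UMIs in 44 cells, 0 to 20 per cell with a median of 6, against 40 of its relative SLC29A2. Phosphate carriers were SLC20A1 with 185 UMIs in 43 cells and SLC20A2 with 50 in 24, both sodium-coupled importers that retroviruses use as receptors.

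Sugar carriers were led by SLC37A3 and SLC50A1. SLC37A3, a lysosomal member of the sugar phosphate exchanger family, had 154 UMIs in 37 cells and reached 17 in cell 27. SLC50A1, a SWEET-type glucose carrier, had 144 in 35 cells, and SLC37A4, the glucose 6-phosphate carrier of the endoplasmic reticulum, had 102 in 39. The 4 SLC2 genes had 207 UMIs, of which SLC2A1, the GLUT1 glucose carrier of most dividing cells, had 58 in 29 cells. SLC2A4 had 9 UMIs and SLC2A3 had 7, under the minimum. Vitamin carriers had 6 genes and 441 UMIs, led by SLC5A6, which takes up biotin and pantothenate, with 131 UMIs and by the riboflavin carrier SLC52A2 with 125. Other metal carriers were led by the copper importer SLC31A1 with 165 UMIs in 42 cells, followed by SLC41A3 of the magnesium carriers with 59. The anion exchanger SLC4A2, with 140 UMIs in 39 cells, led the carriers of chloride, bicarbonate, protons and sodium, and the sodium-bicarbonate cotransporter SLC4A7 had 51. Lipid, choline and bile acid carriers were led by SLC27A5, a bile acyl-CoA synthetase best known from liver, with 88 UMIs, and by the fatty acid carrier SLC27A4 with 60. Organic ion carriers were few and rare, with SLC22A23 at 39 UMIs and the polyamine carrier SLC18B1 at 32. None of the 6 rows named for calcium carriers, of which SLC8A1-AS1 is an antisense RNA, reached 20 UMIs, and the highest of them, SLC8A1, had 11.

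The 6 genes that only bear a carrier's name had 573 UMIs. SLC9A3R1, the scaffold NHERF1, had 185 UMIs in 44 cells, SLC2A4RG, a DNA-binding regulator of SLC2A4, had 164 in 45, and SLC4A1AP, which binds the anion exchanger of red cells, had 75. SLC16A1-AS1 is transcribed antisense to SLC16A1 and had 68 UMIs, with a rho of 0.236 to SLC16A1 over cells (0.182 after thinning). SLC7A6OS lies opposite SLC7A6 and had 47, with a rho of -0.00166 (-0.0431 after thinning). By gene names in the GENCODE v29 annotation, 58 of the 104 genes overlap another annotated gene and 27 overlap one with a row, for example SLC31A1 with CDC26 (170 UMIs), SLC4A2 with CDK5 (226), SLC5A6 with ATRAID (441) and SLC37A4 with TRAPPC4 (209). The use of strand in counting is not given in the sources used here, so the UMIs of such pairs are uncertain. No share over all genes stands beside the counts of overlaps, so they are not read as a trait of solute carriers.

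**Figure D2:**
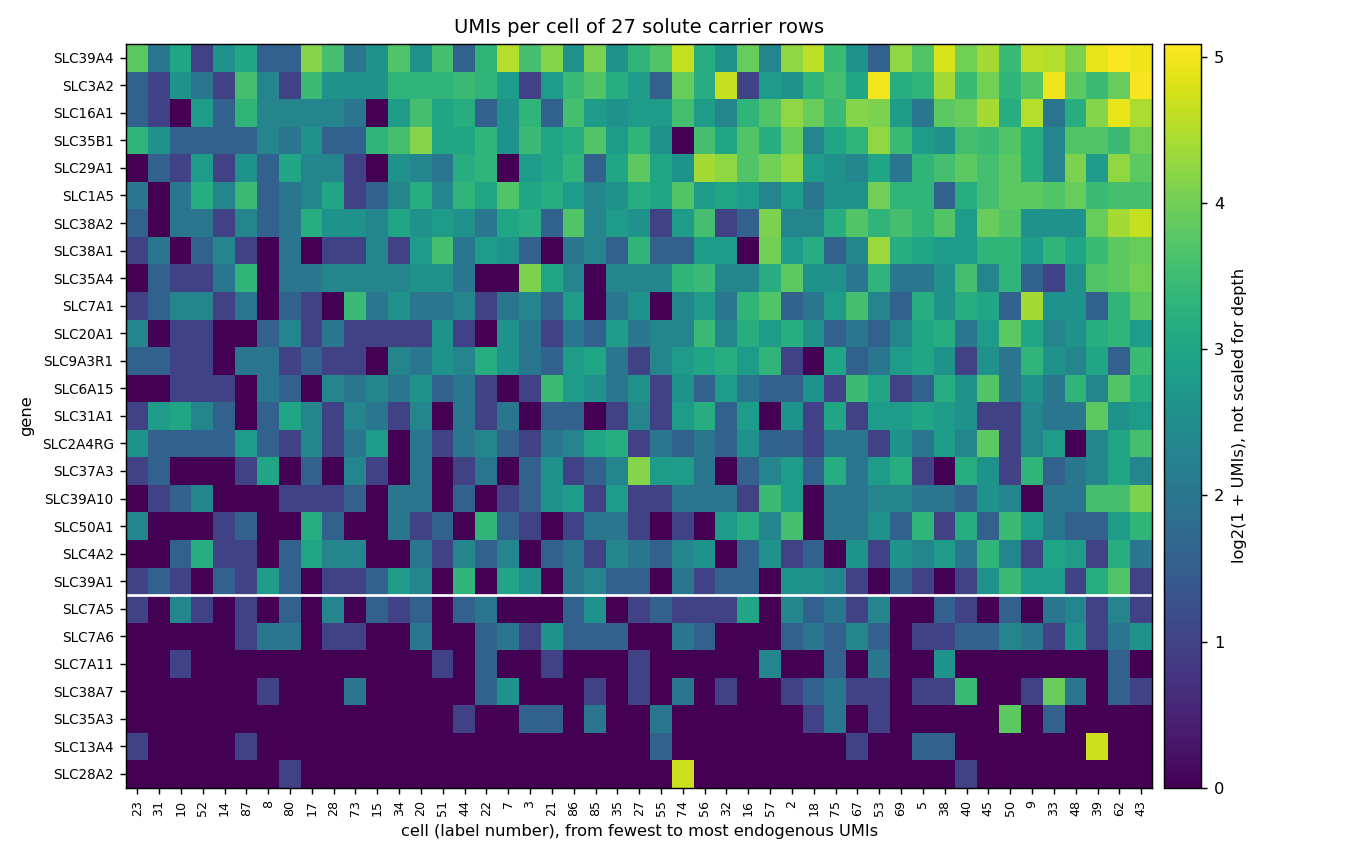
UMIs per cell, shown as log2(1 + UMIs) without scaling for depth, of 27 solute carriers (y axis) in the 47 cells (x axis, label numbers from fewest to most endogenous UMIs); above the white line are the 20 with most UMIs and below it 7 named in the text. SLC39A4 and SLC3A2 have a UMI in all cells, while SLC13A4 and SLC28A2 each show a single bright cell, 39 and 74, with 25 UMIs.

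Most UMIs of SLC28A2 and of SLC13A4 came from a single cell each. SLC28A2, the sodium-coupled carrier CNT2 of purine nucleosides, had 27 UMIs, of which 25 were in cell 74 and 1 each in cells 40 and 80, so that cell 74 held 92.6%. In that cell 0.584 UMIs would have been expected from its share of the endogenous total. SLC13A4, a sodium-coupled sulfate carrier, had 34 UMIs, of which 25 were in cell 39, against 1.12 expected there. Cells 5, 38 and 55 had 2 each and cells 23, 67 and 87 had 1 each, so that cell 39 held 73.5%. The 2 genes were 1.92% of the solute carriers, against 0.132% of all tested genes with at least 50% of their UMIs in 1 cell, but this pattern was part of how the genes were chosen and nothing is read from the difference. The other 10 genes of the table with the pattern were HMOX1, BMP2, CALY, TNC, C18orf25, ARC, C5orf28, KRTAP19-1, RP11-455F5.3 and RP3-410B11.1, whose top cells were other than 74 and 39.

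Cell 74 was near the middle in depth, with 63178 endogenous UMIs, rank 22 of the 47. Cell 39 was among the deepest, with 95936, rank 3. The solute carrier share of cell 74 was 0.405%, the third highest, and 0.366% without the 2 genes, rank 8. That of cell 39 was 0.376% and 0.350%. Through SLC28A2 the nucleoside carriers had their highest share in cell 74, 0.0475% (30 UMIs, interval 0.0320% to 0.0678%), and through SLC13A4 the carriers of carboxylates, sulfate and anions had theirs in cell 39, 0.0615% (59 UMIs, interval 0.0468% to 0.0793%). Next in line was SLC35A3, the carrier of UDP-N-acetylglucosamine, with 13 of 31 UMIs in cell 50 (41.9%) and the rest in 9 cells at 1 to 3 each. SLC38A7, a lysosomal glutamine carrier, had 14 of its 58 UMIs in cell 33 and 10 in cell 40. 

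**Figure D3:**
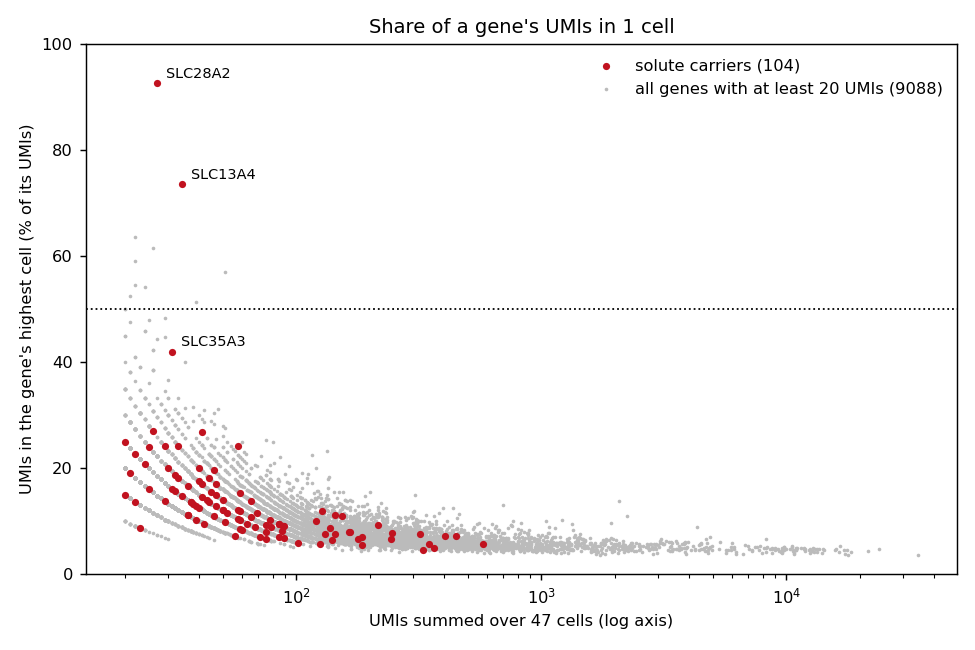
Share of a gene's UMIs that fall in its highest cell (y axis, percent) against its summed UMIs (x axis, log scale) for the 104 solute carriers (red) and all 9088 genes with at least 20 UMIs (grey); the dotted line is at 50%. SLC28A2 at 92.6% and SLC13A4 at 73.5% lie above all grey points that are not solute carriers, and SLC35A3 follows at 41.9%.

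The promoters of the solute carriers were mostly rich in CpG, as were those of the other genes with at least 20 UMIs. Counting the richest window of each gene, the median was 30 CpG in the 85 matched solute carriers, 29 in the matched genes with at least 20 UMIs, 28 in 81 solute carrier rows under 20 UMIs and 16 in all genes of the promoter table. Under 10 CpG had 2 of the 85 (2.35%), SLC27A5 with 2 and SLC13A4 with 7, against 2.48% of the tested genes, 22.2% of the solute carrier rows under the minimum and 41.5% of the whole table. The limit of 10 and the use of the richest window were chosen after the values had been seen, and SLC28A2 was not matched. The 150 bases before the start of SLC13A4 are shown beside those of SLC3A2, picked for their contrast, with each CpG in capitals.
SLC13A4 (chr7:135728187-135728336, - strand): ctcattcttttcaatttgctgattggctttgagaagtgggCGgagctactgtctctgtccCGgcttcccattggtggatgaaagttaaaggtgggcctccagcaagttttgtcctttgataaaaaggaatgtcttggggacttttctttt
SLC3A2 (chr11:62855959-62856108, + strand): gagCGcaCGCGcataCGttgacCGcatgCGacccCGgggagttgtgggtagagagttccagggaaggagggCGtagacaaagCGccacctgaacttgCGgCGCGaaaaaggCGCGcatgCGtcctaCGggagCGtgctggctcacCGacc
The stretch of SLC13A4 holds 2 CpG and that of SLC3A2 holds 18. SLC3A2 has 3 annotated windows, and this stretch belongs to another start than the one beside its TGATGNAA match. SLC27A5, with the fewest CpG of the 85, had 88 UMIs in 31 cells.

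Spread between cells was measured for all solute carriers. The index of dispersion compares a gene's counts with those expected from the depth of each cell, and is 1 under counting error alone. Its median was 1.93 over the 104 solute carriers (1.91 without SLC28A2 and SLC13A4) and 2.00 over all 9088 genes. It was 1.82 over SLC25 carriers and 1.97 over the ABC family. In 52 spike-ins, whose molecules are equal in all cells by design, it was 2.11 at the median and 3.97 at the highest. Above the highest spike-in were 3 solute carriers (2.88%), against 3.21% of all genes: SLC28A2 with 22.8, SLC13A4 with 11.9 and SLC35A3 with 4.70. Over all 104 that count lies near the background. All 3 had 20 to 49 UMIs, 6.52% of the solute carriers there against 2.03% of genes. From 50 UMIs up no solute carrier was above the highest spike-in, against 0.975% to 8.56% of genes by range of UMIs. A single leading cell was part of how SLC28A2 and SLC13A4 were chosen, so nothing is read from these differences. In the 46 solute carriers with 20 to 49 UMIs, SLC28A2 and SLC13A4 among them, the median index was 2.19, against 1.79 in 3147 genes. From 50 to 99 UMIs it was 1.82 in 33 against 1.90 in 2256. Over 33 spike-ins with 20 to 580 UMIs the median was 2.24, so the 2.19 is not read as spread beyond that of spike-ins.

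The 7 further genes among the 10 highest indices were SLC38A7 with 3.95, the chloride extruder SLC12A5 with 3.60, the neutral amino acid carrier SLC43A1 with 3.44, SLC18B1 with 3.28, the sulfate carrier SLC26A2 with 3.27, SLC3A2 with 3.25 and SLC39A4 with 3.24. These values lay within the range of the spike-ins, but the placing of 3 of the genes depended on the scaling. With expected counts from spike-in totals SLC39A4 had 4.77, SLC38A7 4.36 and SLC3A2 4.33, all above the highest spike-in. With those totals the index of a gene also holds differences in endogenous UMIs between cells. The index of the spike-ins does not hold them, so the measures are unlike. SLC38A7 was also above the highest spike-in with TMM scaling (4.11) and DESeq2 size factors (4.12). Without the cell that was highest after scaling, the index was 1.17 for SLC28A2, 1.54 for SLC13A4, 1.93 for SLC35A3 and 2.72 for SLC38A7. It was 0.969 for SLC26A2, which had 7 of its 29 UMIs in cell 80, and 3.16 for SLC39A4, which thus did not rest on 1 cell. Among the 10 genes with at least 200 UMIs the lowest indices were 1.43 for SLC1A5, 1.71 for SLC38A2, 1.98 for SLC35B1, 2.26 for SLC38A1 and 2.27 for SLC7A1. SLC1A5, SLC38A2 and SLC35B1 lay below the spike-in median, so no spread beyond that of the spike-ins was detectable for them at this depth.

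**Figure D4:**
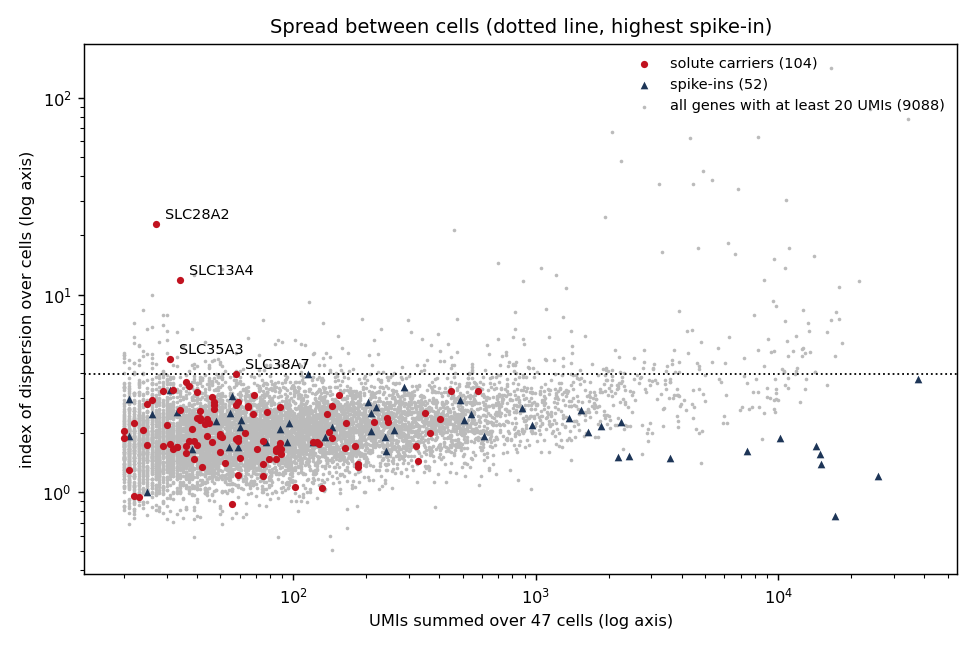
Index of dispersion over 47 cells (y axis, log scale) against summed UMIs (x axis, log scale) for the 104 solute carriers (red), all 9088 genes with at least 20 UMIs (grey) and 52 spike-ins (triangles); the dotted line is the highest spike-in index, 3.97. SLC28A2, SLC13A4 and SLC35A3 lie above the line, SLC38A7 lies on it, and the other solute carriers lie among the grey points below it.

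A UMI in all 47 cells was found for 2 of 104 solute carriers (1.92%), against 11.4% of all genes. This share moves with abundance, and the median solute carrier had fewer UMIs than the median gene. Among genes with at least 200 UMIs it was 2 of 10 (20%), against 49.6% of 2079, whose median of 432 UMIs was above the 338 of the 10 solute carriers. Close to it were SLC35B1, SLC1A5 and SLC38A2, each with 1 cell at 0. A cell showed 36 to 84 of the 104 genes, with a median of 58, and 35 to 54 with a median of 43 after thinning to 29325 UMIs.

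The summed solute carrier share differed 1.97-fold between the extreme cells. It was highest in cell 20 at 0.428% (interval 0.371% to 0.492%), 0.323% at the median and lowest in cell 14 at 0.217% (interval 0.171% to 0.273%). With the recovery of each cell's own spike-ins, in place of the 17.7% over all cells, the solute carriers had an estimated 555 molecules in cell 31 at the lowest, 1161 at the median and 2153 in cell 62 at the highest. The index of the summed UMIs was 3.63, beside a median of 4.34 over 89 single genes with 5000 to 20000 UMIs and 1.59 over 6 spike-ins of that range. Cell 52, with the high mitochondrial share, had 0.407%. Share and endogenous UMIs had a Pearson's r of 0.159 and a Spearman's rho of 0.184 over cells, as a description of points whose axes share the total.

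By class, the amino acid carrier share was highest in cell 53 at 0.144% (103 UMIs) and lowest in cell 31 at 0.0319% (10 UMIs). SLC35 genes took 0.107% in cell 20 (50 UMIs) and 0.0246% in cell 10 (8 UMIs), and zinc carriers 0.0798% in cell 62 (92 UMIs) and 0.0230% in cell 87 (8 UMIs). The indices of these sums were 3.17, 2.44 and 2.63, beside a median of 3.19 over 172 single genes with 1500 to 4000 UMIs and 2.01 over 7 spike-ins. Cell 43, the deepest, was the top cell of 12 solute carriers (11.5%), against 16.6% of all genes, and cell 62 was that of 9. Where cells tied for the highest count, the one with the lowest label number was taken, so these counts depend on that rule. Cell 62, for example, shared the highest count of SLC6A15, 12 UMIs, with cell 45, which was taken. By this rule 41 cells led at least 1 solute carrier.

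**Figure D5:**
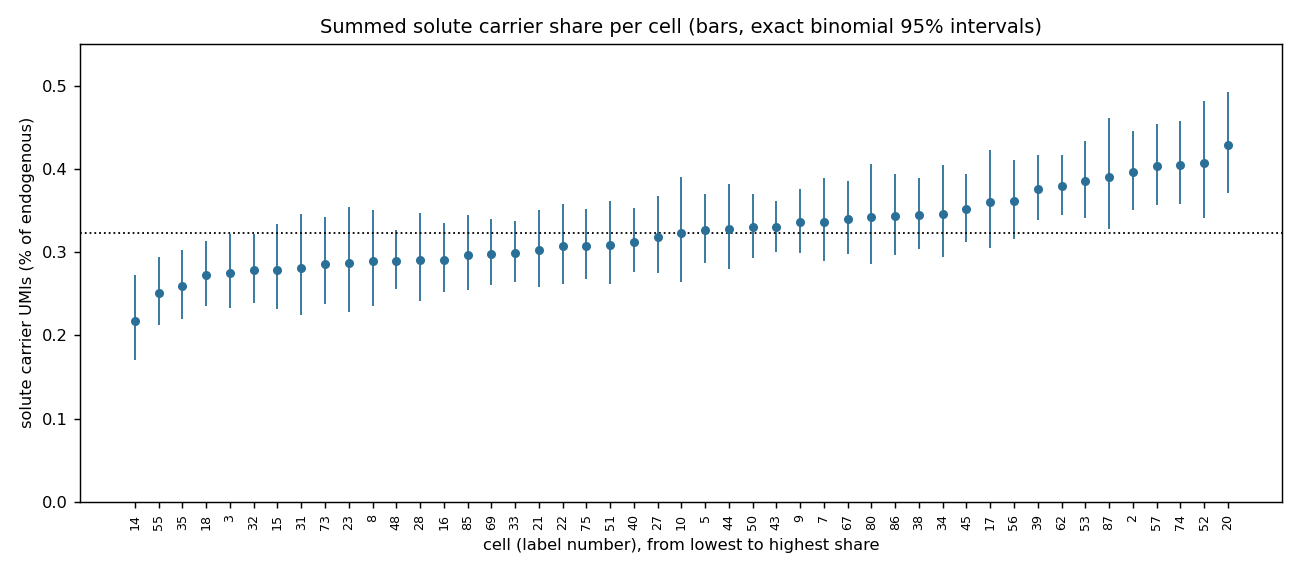
Summed UMIs of the 104 solute carriers as a percentage of endogenous UMIs (y axis) in each of the 47 cells (x axis, label numbers, from the lowest to the highest share); bars are exact binomial 95% intervals and the dotted line is the median, 0.323%. Cell 14 at 0.217% and cell 20 at 0.428% are the extremes, and most intervals cross the median.

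Carriers that mark kidney tubules or neurons were looked up as well. Of 22 tubule carriers 8 had a row, and 1 of these reached the minimum, which 48.7% of all rows did: SLC47A1, the MATE1 exporter of organic cations, with 26 UMIs in 13 cells and 7 as its highest count, in cell 55. The dicarboxylate carrier SLC13A3 had 11 UMIs, the glucose carrier SLC5A2 had 4, the bicarbonate carrier SLC4A4 had 3, and SLC3A1, SLC7A9 and SLC6A19 of amino acid reabsorption had 1 each, while the urea carrier SLC14A2 was at 0. Of 17 neuronal carriers 5 had a row, and 2 of these reached the minimum, a share near that background. SLC1A3, the glutamate carrier EAAT1, better known from astrocytes, had 65 UMIs in 29 cells, and SLC12A5, the chloride extruder KCC2 of mature neurons, had 36 in 13 cells, with 6 in cell 73 and 5 each in cells 56 and 57. SLC1A1, the vesicular monoamine carrier SLC18A2 and the vesicular glutamate carrier SLC17A7 had 19, 11 and 3. The other genes of both lists were not analysed here.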

How the data were processed

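Per the labels' protocols, HEK293 cells were lysed in a microfluidic chip with ERCC spike-in RNAs (20000 molecules per cell), mRNA was primed with oligo-dT, template switching placed the UMI at the 5' end, and cDNA was amplified for 18 PCR cycles. The authors deposited 1 table of UMI counts per gene and cell, whole numbers without normalization. The submitters' processing notes name cutadapt 1.2.1, STAR 2.4.0a and the builds hg19 and GRCh37. How UMIs were collapsed, which annotation and strand were used, how reads with several matches were handled and how cells were filtered is not given in the sources used here. A stray header line, 0.0602% of all values, was left out, which left 18651 gene rows and 78 spike-in rows, and 0 columns were unmatched. Totals per cell are given with the results, and intervals (exact Poisson for counts, exact binomial for shares and ratios, 95%) cover counting error only.

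The index of dispersion is chi-square over degrees of freedom, with expected counts in proportion to endogenous UMIs, for all 9088 genes with at least 20 UMIs; for spike-ins it uses their own totals. Scripts ran in Python 3.11.15 with numpy 2.4.6, pandas 2.3.3 and scipy 1.17.1, and the index was tested on simulated data. Scaling factors of edgeR 4.0.16 (TMM) and DESeq2 1.42.0, in R 4.3.3, entered only alternatives, and no count model was fitted. The other alternatives were other minimum counts and other shares in 1 cell, totals of spike-ins, thinning of cells to 29325 UMIs in 1 seeded draw, and leaving out cell 52, the highest cell of a gene, SLC39A4, cells far in depth or mitochondrial rows. Classes follow SLC family numbers, with 7 rows moved by gene after the members were seen.

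The members and lists were chosen with earlier results of these data known. Genes are named by a rule: the 20 with most UMIs, those with at least 50% of their UMIs in 1 cell, the 10 highest indices, SLC3 and SLC7 genes, kidney tubule and neuronal carriers, the rows at the minimum, the 5 lowest indices from 200 UMIs up, and the first 1 or 2 of each class. Some genes that the rule or the lists name are not reported here. Further genes named beside them, the added pairs, the list of ATF4 genes that are no carriers, the promoter searches and the printed sequences were chosen with the values in view. Annotations are of GRCh38 and the table is not, so they gave only names, overlaps and promoter sequences, found for 85 of 104 genes. Of these, 69 had their start sequence in a transcript of the same gene. Protein features, which had been planned, were not made.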

Additional observations from a re-analysis of the deposited data

How the results depend on the processing

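Of 81 comparisons of a result with an alternative, 37 moved beyond their margin, and 2 rank correlations, given below, changed sign. A minimum of 50 UMIs left 58 solute carriers. With a share of 75% in 1 cell, SLC28A2 alone met the rule, 1 gene. The median index was 1.59 without the highest cell of each gene and 1.53 after thinning. The number of solute carriers above the highest spike-in was 6 with spike-in totals (SLC28A2, SLC13A4, SLC35A3, SLC39A4, SLC38A7 and SLC3A2). It was 4 with TMM or DESeq2 factors or without cell 52, and 0 without the highest cell of each gene. With a minimum of 100 UMIs it was 0, and 1 without the genes led by 1 cell. These counts were made for solute carriers only, so no share over all genes stands beside them. Spike-ins kept their highest cell where genes lost theirs, so that 0 rests on unlike measures. The 6 do so too, because spike-in totals leave differences in endogenous UMIs between cells in the index of a gene. The summed share was 0.307% without SLC39A4 and 0.346% of UMIs without mitochondrial rows. Spearman's rho of share and depth was -0.0907 in the 17 cells numbered above 48 and 0.278 in the 30 others, and the cause was not tested. Amino acid carriers per 100 zinc carrier UMIs were 276 without SLC39A4, an alternative chosen after seeing the data, as were those without cell 52 for the share, without rows named after a carrier and without the genes led by 1 cell. Thinning turned the rho of SLC3A2 and SLC7A6 to -0.0183. Depth limits what single cells show: 46 genes (44.2%, against 34.6% of all genes with at least 20 UMIs) had under 50 UMIs over 47 cells. No paired analysis was possible because the labels give no groups.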
